A study of Mus musculus with 4 samples.

Results

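The genes that encode the proteins of the cytoplasmic ribosome were followed through the cell types of the mouse main olfactory epithelium (MOE), the tissue of the nasal cavity in which odors are detected. They were taken by name: every symbol beginning with Rpl or Rps and a digit, together with Rplp0, Rplp1, Rplp2 and Rpsa, leaving out names that carry -ps and the Rps6k kinases. The rule gave 94 of 55511 features. Of these, 77 encode the standard proteins, 46 of the large subunit and 31 of the small one, and 17 are paralogs, retrocopies or genes that only carry the name, such as Rps19bp1. The libraries came from 4 male mice (C57BL/6 in the labels, C57BL/6J in the study's methods) aged 8 weeks and at rest, that is not actively exposed to an odor, with no treatment or engineered allele given in the labels. Live nucleated cells were sorted and 1 library of mRNA 3′ ends was made per mouse, so that all groups compared are cell types of the same mice. The deposited labels are globose basal cells (GBC), horizontal basal cells (HBC1, HBC2), immediate neuronal precursors (INP), immature and mature olfactory sensory neurons (iOSN1, iOSN2, mOSN), sustentacular cells (Sus) and microvillar cells (Mv1, Mv2).

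Ribosomal proteins are made in the cytoplasm, carried into the nucleolus and assembled there with ribosomal RNA into a small subunit, which decodes the mRNA, and a large subunit, which joins the amino acids. The stalk of the large subunit, built from Rplp0, Rplp1 and Rplp2, recruits translation factors. The mRNAs of this group typically begin with a pyrimidine tract, through which the mTOR pathway and the RNA-binding protein Larp1 adjust their translation together. In the olfactory epithelium neurons are replaced throughout life: GBC divide, INP commit to the neuronal fate, and immature neurons grow an axon and cilia.

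The files held 23157467 to 32382702 unique molecular identifiers (UMIs, each standing for a captured mRNA molecule) per mouse, and 15859 cells that the deposited annotation placed in 10 types. Omp, the marker of mature neurons, stood at 72.1 ± 3.78 UMIs per 10000 in mOSN (mean ± SD, n = 4 mice, as throughout), Krt5 at 21.3 ± 3.31 in HBC1 and Ascl3 at 19.5 ± 2.20 in Mv2. The cells called HBC2 carried the sustentacular gene Cyp2g1 (25.7 UMIs per 10000, against 0.865 in HBC1 and 71.4 in Sus) beside Krt5 at 7.28. Summed over their lists, sustentacular markers stood at 30.8 ± 15.0 and HBC markers at 17.5 ± 2.78 in HBC2, against 3.58 ± 2.67 and 45.4 ± 7.30 in HBC1, so HBC2 is used here only as the label of a cluster. Pairs of libraries shared 4 to 14 cell barcodes. The clusters had been formed on genes that may include the members, so the differences between types are not independent of how the types were drawn.

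The bases around the annotated transcription start are shown for members that the results turn on, since a pyrimidine tract would open the mRNA there. Each line gives 20 bases before and 20 bases after the annotated transcription start, from RefSeq on GRCm38.p6, written 5′ to 3′ on the strand of the gene, with each copy of the letters CTTTC in capitals.
Rpl15, chr14:18270967-18271006, minus strand: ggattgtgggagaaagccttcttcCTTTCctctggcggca
Rpl13a, chr7:45128726-45128765, minus strand: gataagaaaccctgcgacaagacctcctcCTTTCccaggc
Rpl12, chr2:32961692-32961731, plus strand: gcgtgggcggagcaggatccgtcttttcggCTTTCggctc
Rplp2, chr7:141447631-141447670, plus strand: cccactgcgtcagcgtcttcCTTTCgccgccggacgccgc
Rps27, chr3:90213629-90213668, minus strand: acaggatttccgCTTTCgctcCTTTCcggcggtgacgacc
Rps27rt, chr9:114982720-114982759, minus strand: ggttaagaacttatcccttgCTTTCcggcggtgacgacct
Rplp0, chr5:115559447-115559486, plus strand: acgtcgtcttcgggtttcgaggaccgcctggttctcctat
Rps2, chr17:24720043-24720082, plus strand: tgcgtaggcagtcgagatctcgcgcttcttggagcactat
Rpl10, chrX:74270796-74270835, plus strand: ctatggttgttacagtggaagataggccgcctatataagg
Rpl41, chr10:128549149-128549188, minus strand: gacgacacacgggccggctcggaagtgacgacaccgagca
With the first transcribed base as 1, CTTTC began at 1 in Rplp2 and Rps27rt, 5 in Rpl15, 10 in Rpl13a and 11 in Rpl12. In Rps27 the first copy began at -8, before the start, and the other copy lay just after the start. Among other standard members, Rpl7a and Rpl38 carried CTTTC in the window, and Rps6, Rps21, Rps24, Rps4x and Rpsa did not. A pyrimidine tract need not contain these letters, so their absence does not mean that a tract is absent. Rps6, for example, reads ctctttttc from base 1. Of the 77 standard members, 57 had a promoter in the RefSeq table, and of the 17 others 12 had one. CTTTC on the transcript strand lay within these 40 bases in 18 of the 57 standard members, that is 31.6%, against 6.44% of all 27025 genes in the table. The longer CTCTTTC, which contains it, was found on the transcript strand in the full 300 bases of 22.8% of standard members and of 4.60% of all genes. CCGGAAG, the core of an ETS-family site, was found on either strand of the 300 bases in 42.1% and in 9.93%. These are descriptions of letters in a window.

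The summed share of the members in all UMIs was lower at each stage from the dividing precursor to the mature neuron. In GBC, mice 1 to 4 gave 18.6%, 19.2%, 20.2% and 17.3%. INP gave 13.1%, 10.8%, 12.7% and 12.4%, and iOSN1 gave 10.1%, 9.14%, 9.36% and 9.93%. The ranges of these 3 types did not overlap. iOSN2 gave 6.03%, 5.49%, 5.54% and 5.76%, below every iOSN1 value. mOSN gave 5.42%, 4.78%, 4.78% and 5.16%, the lowest share of the 10 types in each mouse. The highest mOSN value, in mouse 1, lay just under the lowest iOSN2 value, in mouse 2. The 4 microvillar markers summed to 4.34 ± 2.49 UMIs per 10000 in GBC (2.67 to 8.04 over mice; Ascl3 1.99 ± 1.41), 0.154 ± 0.121 in INP and 0.0188 ± 0.00756 in mOSN, beside 34.5 ± 3.64 in Mv2, and GBC markers to 12.7 ± 2.53 in GBC. Their part in the differences of GBC from later stages was not tested.

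Outside the neuronal lineage, the clusters labelled HBC1 (17.3% ± 1.38) and HBC2 (18.7% ± 2.09) stood beside GBC (18.8% ± 1.21). Sus (11.3% ± 1.28) and Mv1 (12.9% ± 1.58) lay near INP (12.2% ± 0.977), and the ranges of these 3 overlapped. Mv2, the microvillar cells that express Ascl3 and Cftr, held 7.61% ± 0.804, between the values of iOSN1 and iOSN2 in every mouse. Mv1, which expressed Trpm5 (6.01 UMIs per 10000), rested on 20 to 54 cells per mouse, and GBC on 24 to 86. In Mv1 of mouse 2 the share was lowest, 10.6% against 12.9% to 14.2% in the other mice. Omp stood there at 12.7 UMIs per 10000, against 0.415 to 2.28, and its part in the share was not tested. In clusters that the study set aside, immune cells held 17.2% ± 0.903 and cells rich in mitochondrial UMIs 3.69% ± 1.33.

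Counted per cell, the spread over stages was wider. A GBC held 2072 ± 482 UMIs of the group on average, an INP 941 ± 353, an iOSN1 734 ± 150.5, an iOSN2 444 ± 97.4 and an mOSN 268 ± 57.9. Medians per cell lay below the means in GBC, at 2210, 957, 1434.5 and 1288 in mice 1 to 4. In mOSN they lay near the means, at 307, 205, 324 and 209. The median number of all UMIs per cell was 9284 ± 2462 in GBC, 6946 ± 2859.9 in INP, 7129 ± 1636 in iOSN1, 7636 ± 1763 in iOSN2 and 5147 ± 1182 in mOSN. Depth was higher in GBC than in mOSN in 4 of 4 mice, and its part in the count per cell was not tested.

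**Figure D1:**
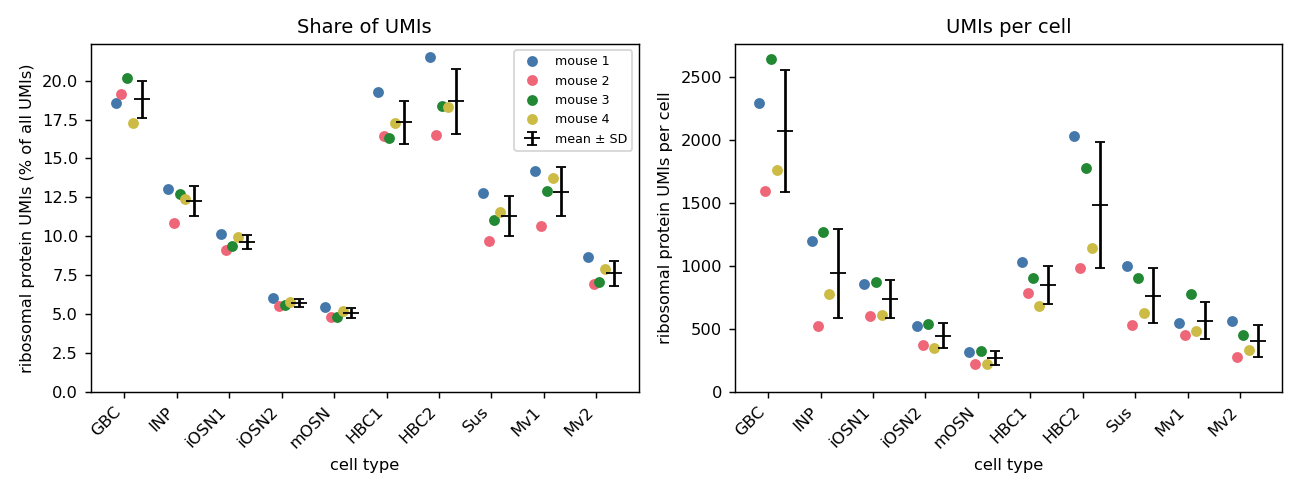
Left, percent of all UMIs that fall on the 94 ribosomal protein genes in each cell type; right, mean number of such UMIs per cell. Coloured points are the 4 mice and black bars the mean ± SD. The mean share goes from 18.8% in GBC to 5.04% in mOSN.

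The 8 differences in share were compared over the 4 mice with an exact two-sided paired sign-flip permutation test, whose smallest possible p with 4 pairs is 0.13. All 8 had the same sign in 4 of 4 mice and gave that smallest p (exact permutation p = 0.13, Benjamini-Hochberg adjusted over the 8 pairs 0.13), so none could pass 0.05. GBC stood 3.73-fold above mOSN. Step by step, GBC stood 1.54-fold above INP, INP 1.27-fold above iOSN1, iOSN1 1.69-fold above iOSN2 and iOSN2 1.13-fold above mOSN. Sus were 2.23-fold and Mv2 1.51-fold above mOSN. Mitochondrial UMIs held 2.92% ± 0.477 in Sus, 3.16% ± 0.754 in Mv2, 1.36% ± 0.190 in mOSN and 0.718% ± 0.136 in iOSN2. Their part in these differences was not tested. HBC2 exceeded HBC1 1.08-fold.

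Gene by gene, UMIs were summed per mouse and type and compared with edgeR's quasi-likelihood test, with the mouse as a block and p-values adjusted over the 12549 genes that passed the filter on low counts. Of the 94 members, 87 passed, among them all 77 standard ones. The other 7, Rpl10l, Rpl32l, Rpl39l, Rpl3l, Rps12l1, Rps23rg1 and Rps3a3, had 0 to 252 UMIs in all retained cells together and were not tested. A gene is called where its adjusted p was under 0.05. All 87 differed somewhere among the 10 types, as did 97.1% of all genes tested.

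From GBC to mOSN, 86 of the 87 members were lower and 0 higher (median -1.75, all genes -0.01, background 38.1% lower and 36.3% higher; medians are log2 changes). Rplp0, the base of the stalk, fell by 3.39 on the log2 scale (SE 0.0988, adjusted p = 1.25e-26). Rps2, a small-subunit protein, fell by 2.70 (SE 0.0904, adjusted p = 9.58e-25). Rpl9 had the smallest fall of a standard member, by 0.95 (SE 0.0806, adjusted p = 3.91e-13). The single member not called was Rps4l, at 0.04 (SE 0.180, adjusted p = 0.869). With library sizes alone, the median of all genes went to -0.18 and that of the members to -1.93.

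The decline was spread over the steps. From GBC to INP, 76 of 87 were lower and 0 higher (median -0.47, all genes -0.05, background 24.3% lower and 20.2% higher). Rpl22l1, a paralog of the large-subunit gene Rpl22, fell by 1.84 (SE 0.144, adjusted p = 4.55e-13) and Rps2 by 1.33 (SE 0.0885, adjusted p = 5.56e-15). From INP to iOSN1, 73 were lower and 2 higher (median -0.43, all genes 0.05, background 17.9% lower and 21.7% higher). Rpl13a, of the large subunit, fell by 0.91 (SE 0.123, adjusted p = 1.59e-07), and the sparse copy Rps3a2 by 1.23 (SE 0.394, adjusted p = 0.0163; 0.0877 without mouse 1 and 0.153 without mouse 3). The 2 that rose were Rps4l, by 0.54 (SE 0.170, adjusted p = 0.0102; 0.270 without mouse 1), and Rpl10, a large-subunit protein that joins late in assembly, by 0.23 (SE 0.0868, adjusted p = 0.0314). Without mouse 1, 2 or 4, the adjusted p of Rpl10 from edgeR was 0.0939, 0.166 and 0.107.

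From iOSN1 to iOSN2, 79 were lower and 0 higher (median -0.61, all genes -0.03, background 21.6% lower and 23.5% higher). The 2 largest falls were those of Rpl10, by 1.52 (SE 0.0875, adjusted p = 7.02e-17), and Rplp0, by 1.30 (SE 0.0935, adjusted p = 3.08e-14). The last step, from iOSN2 to mOSN, moved fewer members, with 26 lower and 2 higher (median -0.12, all genes 0.03, background 16.0% lower and 15.5% higher). Rps4l fell by 0.67 (SE 0.116, adjusted p = 1.63e-05) and Rpl29 by 0.42 (SE 0.0836, adjusted p = 0.000132). Rps21 rose by 0.29 (SE 0.0744, adjusted p = 0.00256), and Rpl7l1, a relative of Rpl7, by 0.31 (SE 0.119, adjusted p = 0.0425; between 0.0535 and 0.219 without mouse 1, 2 or 3). This step had 17 of 87 members called without mouse 3, against 3068 of 12652 genes, and 12 without mouse 4, against 3182 of 13163. With the mouse block left out it had 7, against 3145 of 12549 genes. In the main fit it had 28, against 3960 of 12549.

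Sus and Mv2 were set against mOSN, and these contrasts share the mOSN sums with those above. In Sus, 85 of 87 were higher and 1 lower (median 1.26, all genes -0.05, background 34.9% lower and 34.2% higher). Rplp0 was higher by 2.74 (SE 0.0966, adjusted p = 2.26e-24) and Rps20, of the small subunit, by 2.22 (SE 0.0944, adjusted p = 7.71e-22). The 1 that was lower was Rps4l, at -1.05 (SE 0.233, adjusted p = 0.000142). In Mv2, 68 were higher and 2 lower (median 0.50, all genes 0.06, background 37.2% lower and 40.1% higher). Rplp0 was higher by 1.33 (SE 0.0918, adjusted p = 7.58e-16) and Rps21 by 1.15 (SE 0.0744, adjusted p = 1.12e-16). Rps4l was lower, at -0.40 (SE 0.12, adjusted p = 0.00457; 0.0504 without mouse 1 and 0.0505 without mouse 4), as was Rpl41, a very short protein, at -0.18 (SE 0.0721, adjusted p = 0.0262). With library sizes alone, 75 members were higher and 0 lower, against 5615 and 4200 of all 12549 genes, whose median was 0.21. Rps4l was then at -0.25 (edgeR adjusted p = 0.0620) and Rpl41 at -0.03 (edgeR adjusted p = 0.652). Rpl41 was also not called without mouse 1 (adjusted p = 0.426), mouse 3 (0.0546) or mouse 4 (0.0590).

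Between the HBC clusters, 59 members were lower in HBC1 and 2 higher (median -0.30, all genes -0.18, background 12.5% lower and 7.31% higher). Rplp0 was lower, at -0.79 (SE 0.0939, adjusted p = 3.42e-08), and so was Rpl29, at -0.72 (SE 0.0896, adjusted p = 8.39e-08). The 2 that were higher were Rps27, at 0.64 (SE 0.0846, adjusted p = 3.65e-07), and Rps27rt, at 0.79 (SE 0.168, adjusted p = 0.000521; 0.0593 without mouse 3). In all, 61 were called with 4 mice, against 2482 of 12549 genes, and 25 without mouse 1, against 1459 of 11905. Without mouse 3 it was 32, against 1642 of 12652 genes, and without mouse 4 31, against 1889 of 13163. With library sizes alone the median of all genes was 0.00, and 21 members were lower and 2 higher, against 1000 and 1281 genes. Without the mouse block 24 were called, against 2280 genes.

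**Figure D2:**
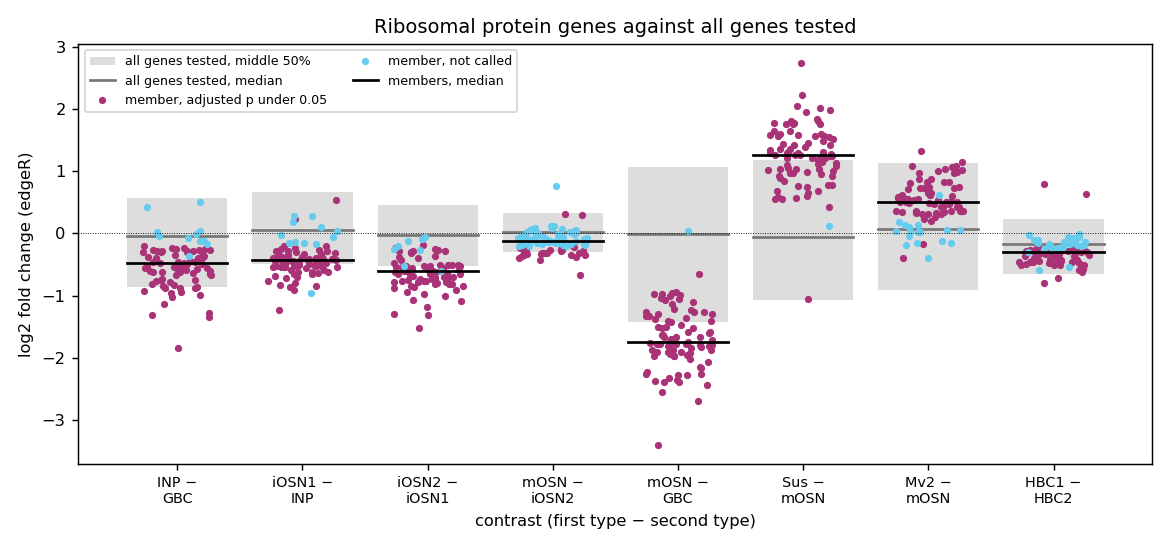
Log2 fold change of the 87 tested members in 8 contrasts between cell types, from edgeR. Points are members, purple where called and light blue otherwise, black lines their median, and grey bars the middle 50% of all genes tested. In mOSN minus GBC, 86 members are called and lie below 0.

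The share of a member within the group divides its UMIs by those of all 94 and needs no scaling of libraries. It is given as a description, with no test. Among the 76 standard members with at least 20 UMIs in each of the 40 sums, the mean share moved over the 10 types by 1.56-fold at the median, from 1.15-fold for Rps6 to 3.53-fold for Rps27. In 62 of the 76 it moved by less than 2-fold. Rps6, whose phosphorylation is a common readout of mTOR activity, stood at 0.245% ± 0.0200 of member UMIs in iOSN2, its lowest type, and 0.281% ± 0.0194 in mOSN, its highest.

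Rps27, a zinc-binding protein of the small subunit, had the largest range. In HBC1 it took 4.47%, 3.88%, 4.04% and 3.70% of member UMIs in mice 1 to 4. HBC2 gave 2.00%, 2.39%, 2.16% and 1.95%, and GBC 1.18%, 1.16%, 1.12% and 1.11%. These 3 clusters did not overlap. In UMIs per 10000, Rps27 stood at 69.9 ± 11 in HBC1 and 7.67 ± 0.542 in mOSN.

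Rplp0 fell along the lineage faster than its group. Its share was 1.73%, 1.79%, 1.76% and 1.75% in GBC of mice 1 to 4 and 0.561%, 0.554%, 0.535% and 0.559% in mOSN. Between them stood 1.42% ± 0.0533 in INP, 1.06% ± 0.0362 in iOSN1 and 0.655% ± 0.0394 in iOSN2, and neighbouring stages did not overlap. The other stalk proteins took another course: Rplp1 stood at 2.31% ± 0.126 in GBC, 1.40% ± 0.0438 in INP and 2.68% ± 0.0545 in mOSN. Rplp2 stood at 1.5% ± 0.0947, 1.22% ± 0.0385 and 1.39% ± 0.0318.

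Some members peaked in 1 type. Rpl10 took 2.16%, 1.97%, 1.92% and 2.10% in iOSN1 of mice 1 to 4, above every value in INP (1.31% ± 0.0694) and iOSN2 (1.09% ± 0.0920). Rpl29, a large-subunit protein, also had its highest mean in iOSN1, at 1.51% ± 0.0219, and its lowest in HBC1, at 0.638% ± 0.103. Rps26, of the small subunit, had its highest mean in INP, at 2.34% ± 0.184, and its lowest in mOSN, at 1.11% ± 0.0388. Rps2 had its highest in GBC, at 2.20% ± 0.0546, followed by Sus at 1.84% ± 0.0914. Rps24, of the small subunit, took 4.82%, 4.01%, 4.50% and 5.0% in Mv1 of mice 1 to 4, with Sus next at 3.16% ± 0.123, and the 2 did not overlap.

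Rpl41, Rps13 and Rpl15 took their largest shares in iOSN2. Rpl41 stood at 3.27% ± 0.101 in GBC, 5.55% ± 0.207 in iOSN2 and 5.10% ± 0.156 in mOSN. Rps13, of the small subunit, stood at 1.22% ± 0.0796, 2.15% ± 0.0519 and 1.95% ± 0.0683. Rpl15 stood at 0.405% ± 0.0595 in iOSN2 and, at its lowest, 0.170% ± 0.00772 in HBC1. Rpl12, which binds at the base of the stalk, was lowest in iOSN2 (0.511% ± 0.0338) and highest in HBC2 (1.24% ± 0.0493). Rpsa went from 1.16% ± 0.0958 in Mv1 to 1.95% ± 0.0435 in GBC, Rps4x from 1.17% ± 0.0544 in Mv2 to 1.64% ± 0.0760 in HBC2, and Rps27a, made as a fusion with ubiquitin, from 1.45% ± 0.137 in HBC1 to 1.86% ± 0.0636 in mOSN. Rps13, Rps26, and the within-group values of Rps2, Rps24 and Rpl10, were picked for description after they had been seen.

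Summed by subunit, the large-subunit members, which are more numerous, held more UMIs than the small-subunit members in every type. The ratio was 1.11 ± 0.00658 in GBC, 1.14 ± 0.0214 in INP, 1.25 ± 0.0189 in iOSN1, 1.30 ± 0.0207 in iOSN2 and 1.27 ± 0.0114 in mOSN. It was 1.13 ± 0.0240 in HBC1 and 1.28 ± 0.0180 in Mv2.

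**Figure D3:**
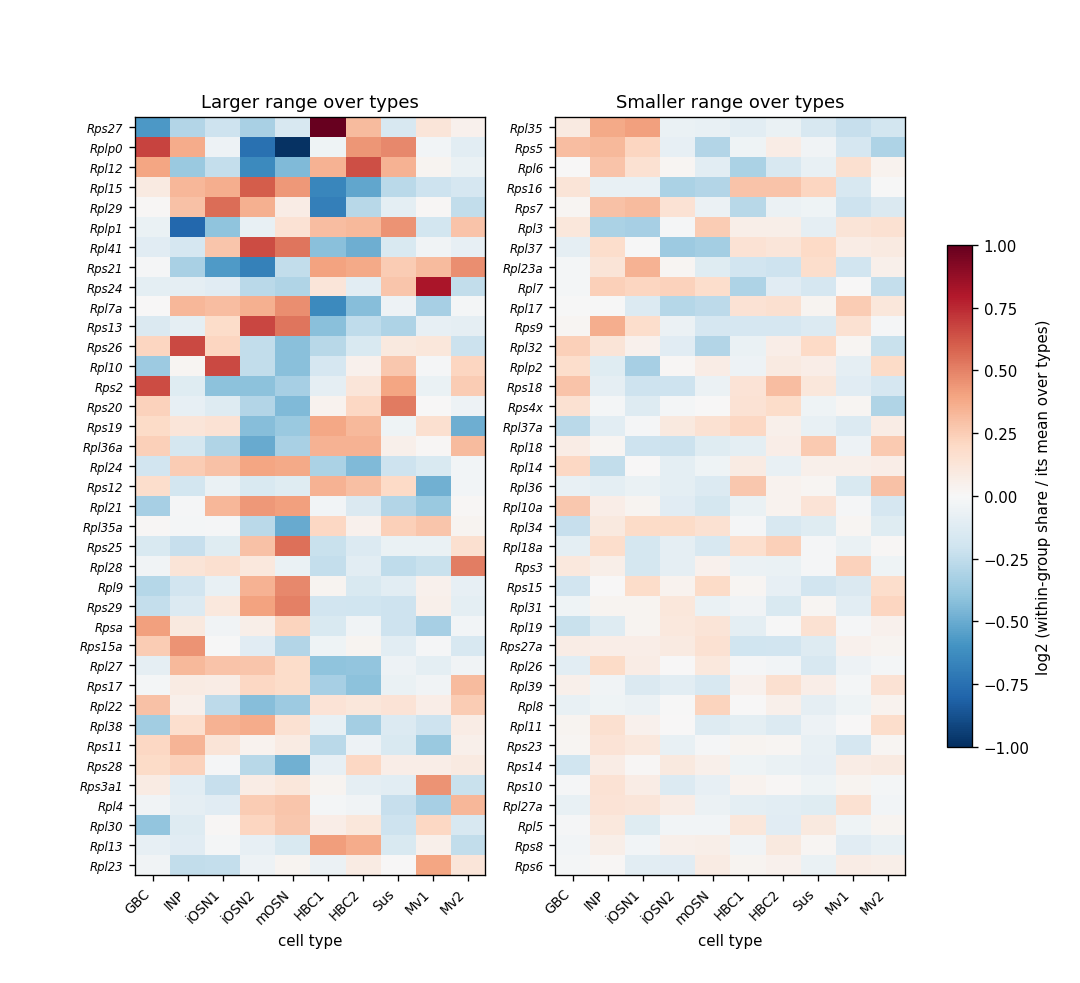
Share of each of 76 standard members in the UMIs of the group, as log2 of the mean over mice relative to the mean over the 10 types. Colours saturate at 1 and -1. Rps27 in HBC1 and Rplp0 in mOSN are among the strongest departures.

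**Figure D4:**
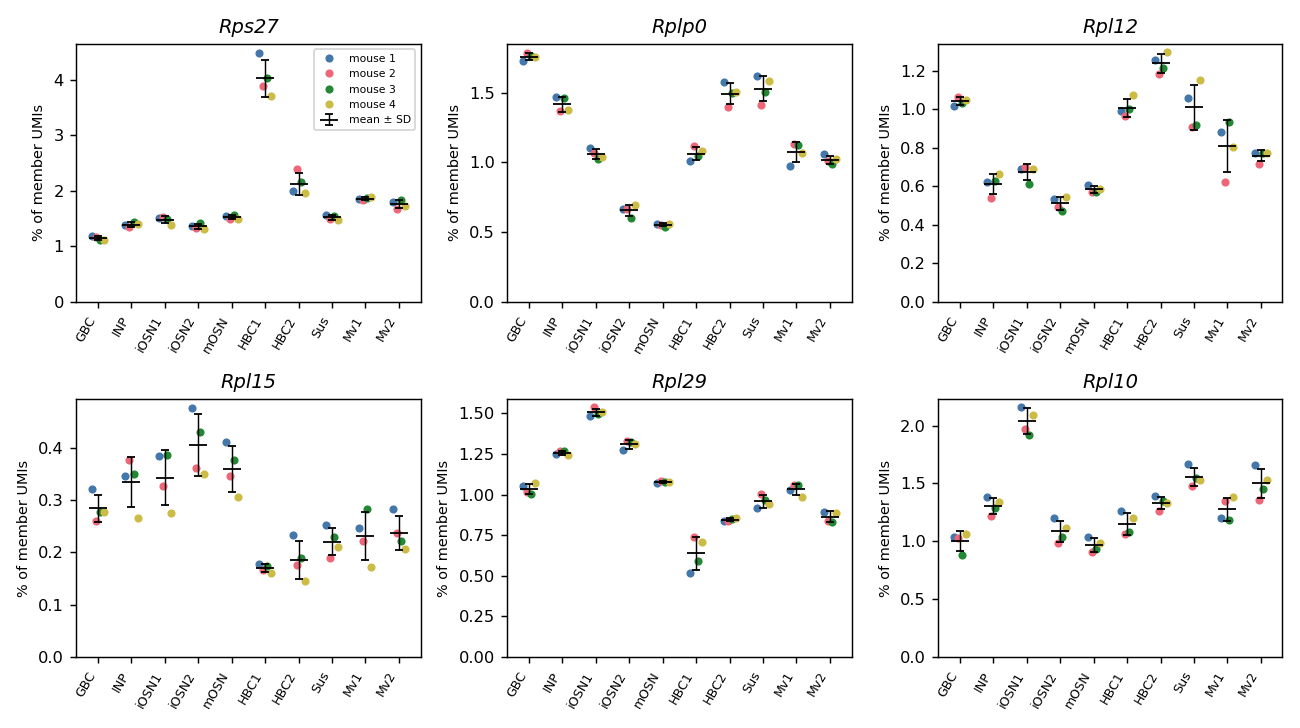
Percent of member UMIs taken by 6 members in each cell type. Coloured points are the 4 mice and bars the mean ± SD. Rps27 stands out in HBC1 at 3.70% to 4.47%, Rplp0 falls from GBC to mOSN, and Rpl10 peaks in iOSN1.

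By UMIs per 10000, averaged over the 10 types, Rpl41, Rps24 and Rplp1 were the highest members and Rps6, Rpl15 and Rpl13a the lowest standard ones. In mOSN, Rpl41 stood at 25.6 ± 0.833 and Rpl13a at 0.452 ± 0.0322. Counts at the 3′ end do not scale with transcript length, but reads of members with near-identical pseudogenes may be lost or shared, so these are ranks of counts and not of mRNA. The 319 features named as -ps copies held 45352 UMIs, or 0.531% of the number on the members.

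The 17 other members together held 1.02% of member UMIs. Rpl22l1 was set against its parent Rpl22 as a ratio of UMIs. In GBC the ratio was 0.331, 0.362, 0.361 and 0.268 in mice 1 to 4. In INP it was 0.185, 0.108, 0.136 and 0.171, and in mOSN 0.602, 0.531, 0.524 and 0.533. The 3 stages did not overlap, with INP lowest and mOSN highest. As with all 48 ratio differences compared, the exact permutation test cannot pass 0.05 (p = 0.13 for INP against GBC, adjusted 0.231, 4 of 4 mice). Rpl36al, which encodes nearly the same protein as Rpl36a, stood at 0.201 ± 0.0445 of it in GBC and 0.469 ± 0.0684 in mOSN, higher in 4 of 4 mice (exact permutation p = 0.13, adjusted 0.231). Rpl36al overlaps the protein-coding gene Gm49383 on the same strand, and whether this changed its count was not tested.

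Rps27l, a paralog of Rps27, was at 0.261 ± 0.0567 of its parent in GBC and 0.264 ± 0.0138 in mOSN, where the mice did not share a direction (exact permutation p = 0.750, adjusted 0.837). In HBC1, where Rps27 was high, it was at 0.0538 ± 0.00773. Rps27rt, a copy of Rps27 that lies within Osbpl10 on the opposite strand, had mean ratios of 0.0181 to 0.0235 over the 10 types while Rps27 itself moved. Single mice ran from 0.00935 to 0.0365 in Mv1, on 2 to 10 UMIs of Rps27rt. In Sus they ran from 0.00902 to 0.0287, on 7 to 27. Reads of Rps27 and Rps27rt may not be separable. Rpl7l1 stood at 0.0508 to 0.108 of Rpl7. Rps19bp1, a binding partner of Rps19 and not a ribosomal protein, stood at 0.803 ± 0.118 UMIs per 10000 in GBC and 0.438 ± 0.0272 in mOSN. Rpl37rt and Rpl6l had their highest means at 0.519 ± 0.121 in HBC1 and 0.188 ± 0.152 in Mv1.

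Rps4l departed from the group up to iOSN1, where it had its highest mean, and had lower means in iOSN2 and mOSN. It is annotated as a transcribed processed pseudogene at chr6:148354656-148355598 (GRCm38, plus strand), within Tmtc1 on the opposite strand. Its parent Rps4x, an X-linked small-subunit gene, stood at 30.2 ± 2.38 UMIs per 10000 in GBC and 7.31 ± 0.662 in mOSN, while Rps4l stood at 0.824 ± 0.326 in GBC, 1.46 ± 0.232 in iOSN1, 1.12 ± 0.109 in iOSN2 and 0.679 ± 0.0400 in mOSN. The ratio of Rps4l to Rps4x was 0.0269 ± 0.00875 in GBC, 0.114 ± 0.0130 in iOSN1, 0.139 ± 0.0231 in iOSN2 and 0.0931 ± 0.00623 in mOSN. It was 0.0189 ± 0.00481 in Sus, 5.06-fold below mOSN in 4 of 4 mice (exact permutation p = 0.13, adjusted 0.231).

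Within mature neurons, Rps4l differed between the clusters labelled dorsal and ventral. The study named these sides from Nqo1 and Nfix expression, and position was not measured here. The clusters were formed without receptor genes, on genes that may include the members. The test between them is thus not independent of how they were drawn. Dorsal mOSNs gave 0.291, 0.279, 0.174 and 0.303 UMIs per 10000 in mice 1 to 4, and ventral ones 0.844, 0.828, 0.880 and 0.885. The sides did not overlap. By deposited cluster, dorsal and ventral means were 0.231 and 0.870 in the clusters labelled only by side, and 0.287 and 1.16 in Calb2+. They were 0.236 and 0.764 in Cd36+ and 0.246 and 0.751 in Dlg2+. In Cd55+ the gap was smaller, 0.517 ± 0.120 against 0.657 ± 0.130. There the mice overlapped, and mouse 4 was reversed (0.541 dorsally, 0.465 ventrally). Between the sides the log2 difference was -1.67 (SE 0.0786, adjusted p = 3.38e-32 in edgeR). This difference stayed called under all 11 alternatives tried, with values between -1.77 and -1.5. Rps4x was at 7.21 ± 0.666 and 7.39 ± 0.627, with dorsal higher in 0 of 4 mice. After the scaling of libraries in edgeR its log2 difference had the other sign and was not called (0.01, edgeR adjusted p = 0.789). Tmtc1 was also lower dorsally, at 0.104 ± 0.0226 against 0.156 ± 0.0370 UMIs per 10000 (log2 -0.51, SE 0.133, adjusted p = 0.00157 in edgeR). Whether reads of one reached the count of the other was not tested.

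The group as a whole held 5.40%, 4.76%, 4.71% and 5.08% of UMIs dorsally in mice 1 to 4 and 5.47%, 4.82%, 4.84% and 5.18% ventrally, lower dorsally in 4 of 4 mice. The difference was smaller than the spread between mice, but both sides come from the same mice, so that spread does not measure it. This difference was not tested. Of the 88 members tested there, 18 were higher dorsally and 8 lower (median 0.03, all genes -0.0032, background 14.2% lower and 13.9% higher). With library sizes alone 6 were higher and 17 lower, and with no filter on low counts 6 and 11, so the balance of directions depended on the scaling and the filter. Leaving Rps4l aside, Rpl38 was at -0.12 (SE 0.0265, adjusted p = 0.000216), Rpl12 at 0.14 (SE 0.0331, adjusted p = 0.000362) and Rpl7a at 0.14 (SE 0.0269, adjusted p = 3.17e-05). Without mouse 2, 17 of 88 were called, against 2793 of 11980 genes. With the mouse block left out 1 was called, which was Rps4l, against 1560 of 11944 genes.

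A population is the set of neurons that express the same odorant receptor. For the 42 populations that every mouse represented by 5 or more neurons, the share of the group ran from 4.43% ± 0.445 in Olfr1037 neurons to 6.12% ± 0.491 in Olfr295 neurons, with a median of 5.22%. The SD of the population means was 0.370 percentage points, and the median SD between mice of a population was 0.410, or 0.271 once the mean of each mouse was removed. The first is a spread of means over mice and the others are spreads of single mice, so they are unlike measures. Of 80 members tested, 25 were called by edgeR in a joint test over populations, that is 31.2%, against 39.3% of all 2207 genes tested. Without mouse 2, 14 of 80 were called, against 728 of 2197 genes.

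Rpl11, a large-subunit protein that binds the p53 regulator Mdm2, had the largest F among the members (9.20, adjusted p = 4.76e-27 in edgeR), and was named after its values were seen. Olfr354 neurons held 9.29, 13.7, 10.0 and 12.6 UMIs per 10000 in mice 1 to 4, and Olfr1297 neurons 3.87, 4.18, 4.16 and 5.33. These are the populations with the highest and the lowest mean, picked on these same values. That they did not overlap is thus a description and no test. The median over populations was 6.10. Over the deposited clusters of OSNs, Rpl11 stood at 5.39 ± 0.591 in the Dlg2+ dorsal, 8.24 ± 1.04 in the Cd55+ dorsal and 9.04 ± 0.833 in the Cd55+ ventral cluster. Between the sides it stood at 5.99 ± 0.365 dorsally and 6.26 ± 0.397 ventrally and was not called (edgeR adjusted p = 0.604). Rps4l ran from 2.24 ± 1.35 in Olfr1507 neurons (F 4.14, edgeR adjusted p = 8.99e-11) to 0 UMIs in Olfr1406, Olfr594 and Olfr689 neurons, where 3 counts over the 4 mice would be 0.162, 0.266 and 0.163 UMIs per 10000. These populations too were picked on these same values. Its parent Rps4x was also called (F 2.25, edgeR adjusted p = 0.000464), with population means from 5.05 to 9.68 UMIs per 10000.

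**Figure D5:**
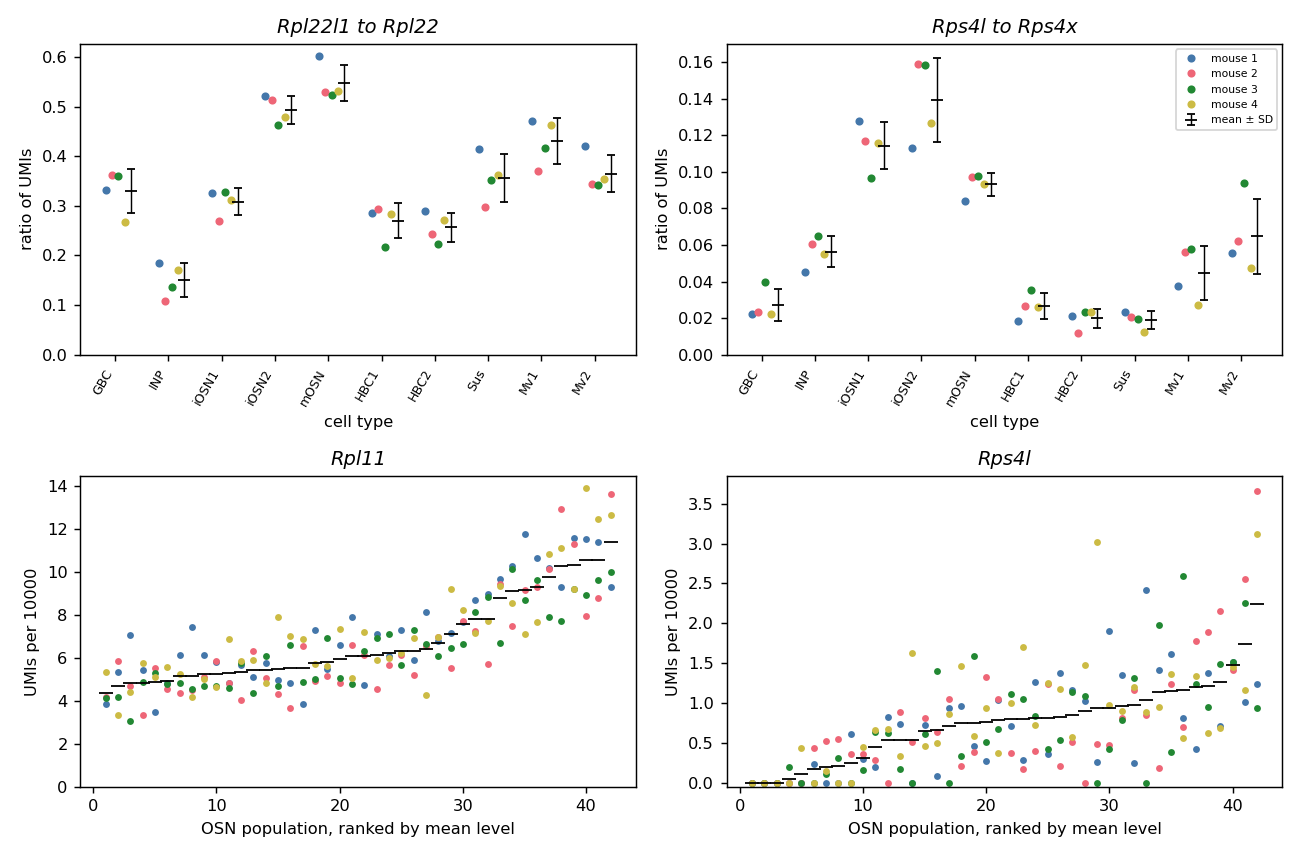
Top, ratio of UMIs of Rpl22l1 to Rpl22 and of Rps4l to Rps4x in each cell type. Bottom, UMIs per 10000 of Rpl11 and Rps4l in the 42 OSN populations, each ranked by its own mean. Points are the 4 mice and black marks the means. Rpl22l1 to Rpl22 is lowest in INP, Rps4l to Rps4x is highest in iOSN2, and the mean of Rpl11 climbs from 4.38 to 11.4.

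Lists of other genes of the pathway were counted in mOSN against GBC, where the background is 38.1% lower and 36.3% higher. Of 7 genes, namely translation elongation factors and Tpt1, 6 were lower and 1 higher (median -1.78). Eef1a1, which delivers aminoacyl-tRNA, stood at 59.6 ± 2.94 UMIs per 10000 in GBC and 11.6 ± 0.357 in mOSN, while its neuronal paralog Eef1a2 stood at 0.0450 ± 0.0393 and 2.41 ± 0.406. Of 13 tested subunits of initiation factor 3, 12 were lower and 0 higher (median -0.84). Of 22 ribosome assembly factors, 17 were lower and 0 higher (median -1.24), with Npm1, a nucleolar chaperone, at -2.70 (SE 0.102, adjusted p = 2.93e-23). Of 8 genes of RNA polymerase I, 7 were lower and 1 higher, the latter being Ubtf at 0.26 (SE 0.116, adjusted p = 0.0452). Of 77 mitochondrial ribosomal protein genes tested, 30 were lower and 24 higher (median -0.16). Of 7 regulators of the translation of ribosomal protein mRNAs, 3 were lower and 2 higher (median -0.39). Larp1 was among the higher, at 0.82 (SE 0.161, adjusted p = 2.62e-05).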

How the data were processed

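Single-cell RNA-seq libraries of the MOE were available from 4 mice, 1 per mouse, and each mouse was 1 replicate. The deposited count matrices hold UMI counts per gene and cell. The submitters' processing notes name Cell Ranger 6.0.1 and GRCm38. The authors left out cells with over 10% mitochondrial UMIs or under 1000 genes, and clusters of immune, blood and high-mitochondrial cells, and deposited the cell type labels used here. No doublet caller was run. UMI counts were summed per mouse and type (40 sums) and tested with edgeR 4.0.16 (R 4.3.3; TMM, filterByExpr, quasi-likelihood, mouse as block, since same-numbered sums come from 1 animal), with DESeq2 1.42.0 as an alternative. The SE printed with a log2 change is the size of that change divided by the square root of the quasi-likelihood F. It was not taken from the fitted model. Receptor genes were left out of the tests among mature neurons. Shares and ratios were compared with exact sign-flip tests (numpy 2.4.6, pandas 2.3.3, scipy 1.17.1; figures by matplotlib 3.10.9). Alternatives were other scalings, no filter, no block, cells thinned to 3000 UMIs, no cells in the top 5% by UMIs, cells under 5% mitochondrial UMIs and leaving out each mouse. The edgeR step was tested on simulated data.

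The members and lists were chosen with earlier results of these data known. Named genes were paralogs with their parents, the 3 highest and 3 lowest members, the 2 called members that moved most in each direction between types, the 5 with the widest range of within-group share, and Rplp0, Rplp1, Rplp2, Rpsa, Rps4x, Rps6 and Rps27a. Genes named between dorsal and ventral neurons and among populations were chosen after their values were seen. A list of other genes of the pathway is not reported here. Columns of per-sample values left unused numbered 0. Intervals were not computed for sums over mice, and 3 counts stand for the limit that a count of 0 allows, for counting error only.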

Additional observations from a re-analysis of the deposited data

Results flagged for a closer look

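In 120 groups of 4 mice, 11 values stood apart from the other 3 mice by more of the group's range than Dixon's 95% limit for 4 values, a rule by which chance flags about 1 in 20 groups. Among shares of member UMIs, these were Rpl12 in iOSN1 of mouse 3 (0.612%) and in Mv2 of mouse 2 (0.717%), and Rps27 in iOSN1 of mouse 4 (1.38%). For the ratio of Rpl22l1 to Rpl22 they were mOSN of mouse 1 (0.602), HBC1 of mouse 3 (0.217) and Mv2 of mouse 1 (0.421). The ratio of Rps27l to Rps27 stood apart in mOSN of mouse 3 (0.243) and in HBC1 of mouse 1 (0.0423). The remaining values were Rpl36al to Rpl36a in Mv1 of mouse 2 (0.707), Rpl7l1 to Rpl7 in INP of mouse 2 (0.127) and Rps4l to Rps4x in GBC of mouse 3 (0.0400).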

How the results depend on the processing

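The GBC share was 16.5% as a mean over cells and 17.5% with cells thinned to 3000 UMIs, against 18.8%. In mOSN against iOSN2, 28 of 87 members were called, against 3960 of 12549 genes. With no filter it was 6 of 92, against 4399 of 30773 genes, and without the mouse block 7, against 3145 of 12549. With library sizes alone it was 37, against 3947 genes, and with DESeq2 41, against 3922. With 1 mouse left out it was 12 to 23, against 3068 to 3266 genes. In HBC1 against HBC2, 61 of 87 members were called, against 2482 of 12549 genes. With library sizes alone it was 23 (all genes 2281), with DESeq2 34 (2231), and with scaling on other genes 34 (2253). With no filter it was 34 of 92 (2182 of 30773 genes), and without the block 24 (2280 of 12549). With thinned cells it was 69 of 85 (1323 of 8655), and without the top 5% of cells 73 (2468 of 12115). With 1 mouse left out it was 25 to 58 (1459 to 2228). Between dorsal and ventral neurons, 26 of 88 members were called, against 3360 of 11944 genes. With DESeq2 it was 11 (8 higher and 3 lower), against 1525 genes. With no filter it was 17 of 90 (6 higher and 11 lower, 18 and 8 with it), against 3156 of 24143 genes. Without the block it was 1, against 1560 genes, and with 1 mouse left out 17 to 23, against 2769 to 2923. Among populations, 25 of 80 members were called, against 868 of 2207 genes. With no filter it was 50 of 89, against 1573 of 19309 genes. With library sizes alone it was 35 of 80, against 896 of 2207, and with thinned cells 11 of 73, against 398 of 999. With 1 mouse left out it was 14 to 18, against 686 to 728 genes. Of the 48 ratio differences, 12 changed sign when some single mouse was left out, and none of these was of Rpl22l1 or Rps4l. Their log2 ranges over the 4 such values were, for Rps27l to Rps27, -0.0201 to 0.165 (mOSN against GBC) and -0.0520 to 0.0459 (Sus against mOSN), and for Rpl36al to Rpl36a -0.141 to 0.348 (INP against GBC). For Rpl7l1 to Rpl7 they were -0.221 to 0.0235 (INP against GBC), -0.0979 to 0.0168 (Mv2 against mOSN) and -0.512 to 0.0935 (HBC1 against HBC2). For Rps27rt to Rps27 they were -0.0338 to 0.423 (INP against GBC), -0.133 to 0.0620 (mOSN against iOSN2), -0.0790 to 0.132 (mOSN against GBC), -0.274 to 0.194 (Sus against mOSN), -0.0166 to 0.120 (Mv2 against mOSN) and -0.0298 to 0.171 (HBC1 against HBC2). With thinned cells, Rps27l to Rps27 in Sus against mOSN turned to 0.0511, and Rpl7l1 to Rpl7 to 0.0817 in Sus against mOSN, 0.0139 in Mv2 against mOSN and 0.12 in HBC1 against HBC2. For 2 of the 48 no finite value was obtained with thinned cells. The cause of these shifts was not tested. Of the remaining summary values under an alternative, 280 kept their direction and size, and 31 values of single genes kept their direction but were no longer called. Precision was limited by 4 mice and, in Mv1 and GBC, by as few as 20 and 24 cells in a mouse.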
